A study of Mus musculus with 42 samples.

Results

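YAP and TAZ are transcriptional coactivators that carry mechanical signals into the nucleus. The 10 genes followed here are both coactivators (Yap1 and Wwtr1, which encodes TAZ), their DNA-binding partners Tead1 and Tead4, the inhibitory kinase Lats2, the angiomotin-like proteins Amotl1 and Amotl2, and the target genes Ctgf, Cyr61 and Ankrd1. They were taken by gene symbol, with the older symbols Ctgf and Cyr61 (now Ccn2 and Ccn1), from a table of 21674 mouse genes, and all 10 were found. In the NCBIM37 (mm9) annotation Yap1 spans chr9:7931999-8004596, Wwtr1 chr3:57259571-57379832, Tead1 chr7:119822832-120050319, Tead4 chr6:128174306-128250841 and Lats2 chr14:58260914-58377225. Amotl1 spans chr9:14346410-14447973, Amotl2 chr9:102619002-102635748, Ctgf chr10:24315248-24318489, Cyr61 chr3:145309935-145312949 and Ankrd1 chr19:36186455-36194334. Expression is the sum over the transcripts of a gene.

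The study asked how low and disturbed flow changes the RNA of the arterial lining, and which recruited blood cells and which splicing factor take part. RNA was flushed from the intima of mouse carotid arteries, the inner layer that faces the blood, and each library is a pool of 3 to 5 flushes. At 48 hr the mice were male C57BL/6J aged 6 to 7 weeks. Partial ligation of the left carotid gave low flow, the opposite artery of the same mice gave high flow, and sham arteries were dissected but not ligated. Untreated groups held 3 libraries each. In the depletion experiment, with 2 libraries a group, low-flow mice received control IgG, anti-GPIba (which depletes platelets), anti-Gr1 (which depletes granulocytes), PBS liposomes or clodronate liposomes (which deplete macrophages), and high-flow arteries came from the IgG and PBS liposome mice. Anti-GPIba and the liposomes were given at ligation and anti-Gr1 before it. At 7 d, mice of 2 to 7 months and both sexes, on a C57 background, lacked Rbfox2 in endothelium (EC-KO: floxed Rbfox2 lox/lox alleles, the Rosa26-mTmG reporter and the transgene Cdh5(PAC)-CreERT2), so that deletion rests on an inducible Cre driven by the Cdh5 promoter. Their littermate controls carried Rosa26-mTmG and Rbfox2 lox/lox without Cre. Each genotype had 3 low-flow and 2 high-flow libraries. Single libraries came from 4 cultures of 1 aortic endothelial line made with TetOn-SV40 from Cdh5(PAC)-CreERT2 mTmG mice and kept 48 hr with no addition, 10% plasma, platelets and macrophages, or all of these. Others came from 3 cultures of primary aortic endothelial cells, which were eGFP+, Rbfox2 control or Rbfox2 EC-KO, and from 1 further low-flow pool each of PBS and clodronate liposomes. Nothing in the labels shows that pools are independent beyond their being separate pools, so p-values measure the spread between pools.

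In the Hippo pathway, Lats kinases phosphorylate YAP and TAZ and hold them in the cytoplasm. When the kinases are less active, YAP and TAZ enter the nucleus and bind TEAD factors, which carry the DNA contact. Ctgf and Cyr61 encode secreted matricellular proteins and Ankrd1 encodes a nuclear and sarcomeric ankyrin repeat protein, and all are widely used as readouts of YAP/TAZ activity. Lats2 and Amotl2 are themselves targets of YAP/TAZ and act back on it. In endothelium, laminar shear is known to restrain YAP/TAZ and disturbed flow to activate it. Localisation and phosphorylation, the main points of control, are not visible in RNA.

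Levels are given as FPKM, fragments scaled for gene length and library depth, computed from the deposited estimated counts and effective gene lengths with TMM scaling within each experiment, and differences as log2 fold changes from edgeR. Library totals were 4064477 to 6794904 counts in the untreated groups, 12286104 to 19035957 in the depletion experiment and 10318685 to 18633538 at 7 d. Untreated libraries, the single liposome pools and the primary eGFP+ cells were read at 100 bp and the others at 150 bp, and levels are not compared between experiments. Low-flow libraries a and b of the untreated set stood apart. Their TMM factors were 0.57 and 0.55, against 1.12 to 1.27 in the other 7 untreated libraries, their 10 most abundant genes held 22.8% and 23.5% of counts, against 9.27% to 10.6%, and Actb alone held 10.6% and 10.1%. With library totals in place of TMM the median log2 fold change of all genes between low and high flow moved from -0.07 to -0.69, so changes there are read relative to that median, and a positive value smaller than this shift has the other sign on library totals. All 11 endothelial markers were detected in every intima group, at a summed 5252 to 9208 CPM in untreated low flow and 8623 to 9316 CPM in high flow. These CPM are counts scaled for the TMM-scaled library total and not for gene length. On plain library totals the sums would be lower in low-flow libraries a and b and higher in the other 7 untreated libraries. In bulk RNA, fewer cells of a type and less RNA per cell cannot be told apart.

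Markers of other cell types differed with flow. The 9 smooth muscle markers summed to 3857 to 5243 CPM in untreated low flow, 470.5 to 552 CPM in high flow and 389 to 1414 CPM in sham. Their sum was led by Acta2 and Tagln, whose log2 fold changes at low against high flow were 3.62 and 2.48, while Myh11, a marker of mature smooth muscle, had -1.13 and did not pass the test. Of the 7 smooth muscle markers tested, 3 were higher and 1 was lower. Macrophage markers summed to 1822 to 5969 CPM in low flow against 74.1 to 142 CPM in high flow, with 7 of 9 tested higher. The neutrophil list summed to 255 to 912 against 5.95 to 17.7 CPM, the platelet list to 24.1 to 41.4 against 14.8 to 43.6 CPM and the fibroblast list to 125 to 379.9 against 421 to 772 CPM. All 7 neutrophil markers tested were higher at low flow and none of 4 platelet markers passed. The fat list went the other way, with all 5 tested lower, at 9.56 to 13.9 CPM in low flow, 12.2 to 88.2 in sham and 123, 317 and 1539 CPM in high-flow libraries a, b and c, so that high-flow library c stands apart. The members' calls between low and high flow were the same 6 without it. No member is private to endothelium, and the part of these other cells in the results was not tested.

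The sequences of the promoters are shown because several members moved together and a TEAD factor recognises a short motif. RefSeq promoters (GRCm38.p6, the 250 bases before the start) were matched for 7 of the 10 genes, with 9 promoters in all. Ctgf, Tead1 and Tead4 were not matched. The TEAD motif GGAATG was searched on both strands (CATTCC on the other) and stood in at least 1 promoter of 5 of the 7 genes, Yap1, Wwtr1, Amotl2, Cyr61 and Ankrd1. Among 32851 promoters of the same length, 12.6% hold it. That share counts promoters, while 5 of 7 counts genes, which were chosen as genes of this pathway. Enrichment was not tested. Lats2 and Amotl1 do not have these letters in the window. In capitals below is the motif in Ankrd1 and Cyr61, the target genes among the matched members, and in Amotl2, which fell at low flow.
Ankrd1 (chr19:36119845-36120094, minus strand): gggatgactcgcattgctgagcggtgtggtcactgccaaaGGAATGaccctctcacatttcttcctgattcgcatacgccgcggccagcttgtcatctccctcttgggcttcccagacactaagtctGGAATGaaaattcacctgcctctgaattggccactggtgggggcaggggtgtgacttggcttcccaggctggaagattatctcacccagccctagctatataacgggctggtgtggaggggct
Cyr61 (chr3:145649986-145650235, minus strand): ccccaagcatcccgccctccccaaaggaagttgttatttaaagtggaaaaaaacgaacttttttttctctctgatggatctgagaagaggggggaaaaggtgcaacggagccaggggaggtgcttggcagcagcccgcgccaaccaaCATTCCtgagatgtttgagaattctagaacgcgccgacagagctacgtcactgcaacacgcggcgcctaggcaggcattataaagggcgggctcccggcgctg
Amotl2 (chr9:102717554-102717803, plus strand): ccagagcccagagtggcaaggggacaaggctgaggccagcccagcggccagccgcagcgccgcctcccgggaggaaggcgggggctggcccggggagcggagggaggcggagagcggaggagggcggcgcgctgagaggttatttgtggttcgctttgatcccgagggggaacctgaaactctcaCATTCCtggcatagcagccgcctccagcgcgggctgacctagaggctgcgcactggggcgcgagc
The first base of the motif lies 210 and 123 bases before the Ankrd1 start, 103 before that of Cyr61 and 65 before that of Amotl2. The motif thus stood in promoters of genes that rose and of a gene that fell. An AP-1 motif (TGANTCA, the same on both strands), searched because AP-1 often binds beside TEAD, was in none of the 9 promoters and is in 6.75% of all.

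The 3 target genes rose at low flow. Between low and high flow at 48 hr without treatment, 6 of the 9 members tested passed an adjusted p of 0.05, 4 of them higher and 2 lower, where 46.2% of the 11236 genes tested passed, 23.6% higher and 22.6% lower. The median log2 fold change of the members was 0.32 against -0.07 over all genes. Ctgf was measured at 51.4, 115 and 185 FPKM in the low-flow libraries a, b and c, 5.68, 10.8 and 5.1 in high flow and 5.72, 6.67 and 9.95 in sham. All low-flow libraries lay above all others, and their mean of 117 ± 66.9 FPKM (SD, n = 3) compared with 7.21 ± 3.16 FPKM (SD, n = 3) at high flow (log2 fold change 4.0 ± 0.47 (SE), adjusted p = 7.31e-05). Against sham the difference was of like size (log2 fold change 3.94 ± 0.47 (SE), adjusted p = 0.00135).

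Cyr61, whose product like that of Ctgf binds integrins, was the most abundant of the members per unit length in the untreated arteries. It stood at 513, 2668 and 1300.1 FPKM at low flow, 306, 227 and 189 at high flow and 305, 115 and 222 in sham. Low-flow library a, at 513 FPKM, lay nearer to the highest control library, at 306 FPKM, than to the other low-flow pools, but the groups did not overlap. The log2 fold change was 2.63 ± 0.57 (SE) against high flow (adjusted p = 0.00355) and 2.77 ± 0.65 against sham (adjusted p = 0.0114). Ankrd1, nearly silent in undisturbed arteries, gave 12.6, 39.7 and 28.6 FPKM at low flow, 1.04, 1.11 and 0.458 at high flow and 1.45, 0.476 and 1.5 in sham. Its low-flow libraries held 79, 157 and 296 counts and its high-flow libraries 8, 13 and 4. Relative to the scaled totals, low flow had 29.1 times (95% counting interval 19.5 to 45.4) the counts of high flow, and edgeR gave log2 fold change 4.89 ± 0.47 (SE), adjusted p = 1.89e-05. The same test against sham gave log2 fold change 4.48 ± 0.51 (SE), adjusted p = 0.00123.

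Without low-flow libraries a and b, which leaves 1 low-flow library whose spread is taken from the other group, the target genes still passed against high flow (log2 fold change 4.67 for Ctgf, 2.44 for Cyr61 and 5.01 for Ankrd1), while Wwtr1 (0.63, adjusted p = 0.0803), Lats2 (-0.50, adjusted p = 0.2) and Amotl2 (-0.31, adjusted p = 0.404) did not. Against sham, that alternative called no gene at all, and Ctgf (4.60, adjusted p = 0.0532), Cyr61 (2.57, adjusted p = 0.0629) and Ankrd1 (4.59, adjusted p = 0.0532) kept their direction.

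**Figure D1:**
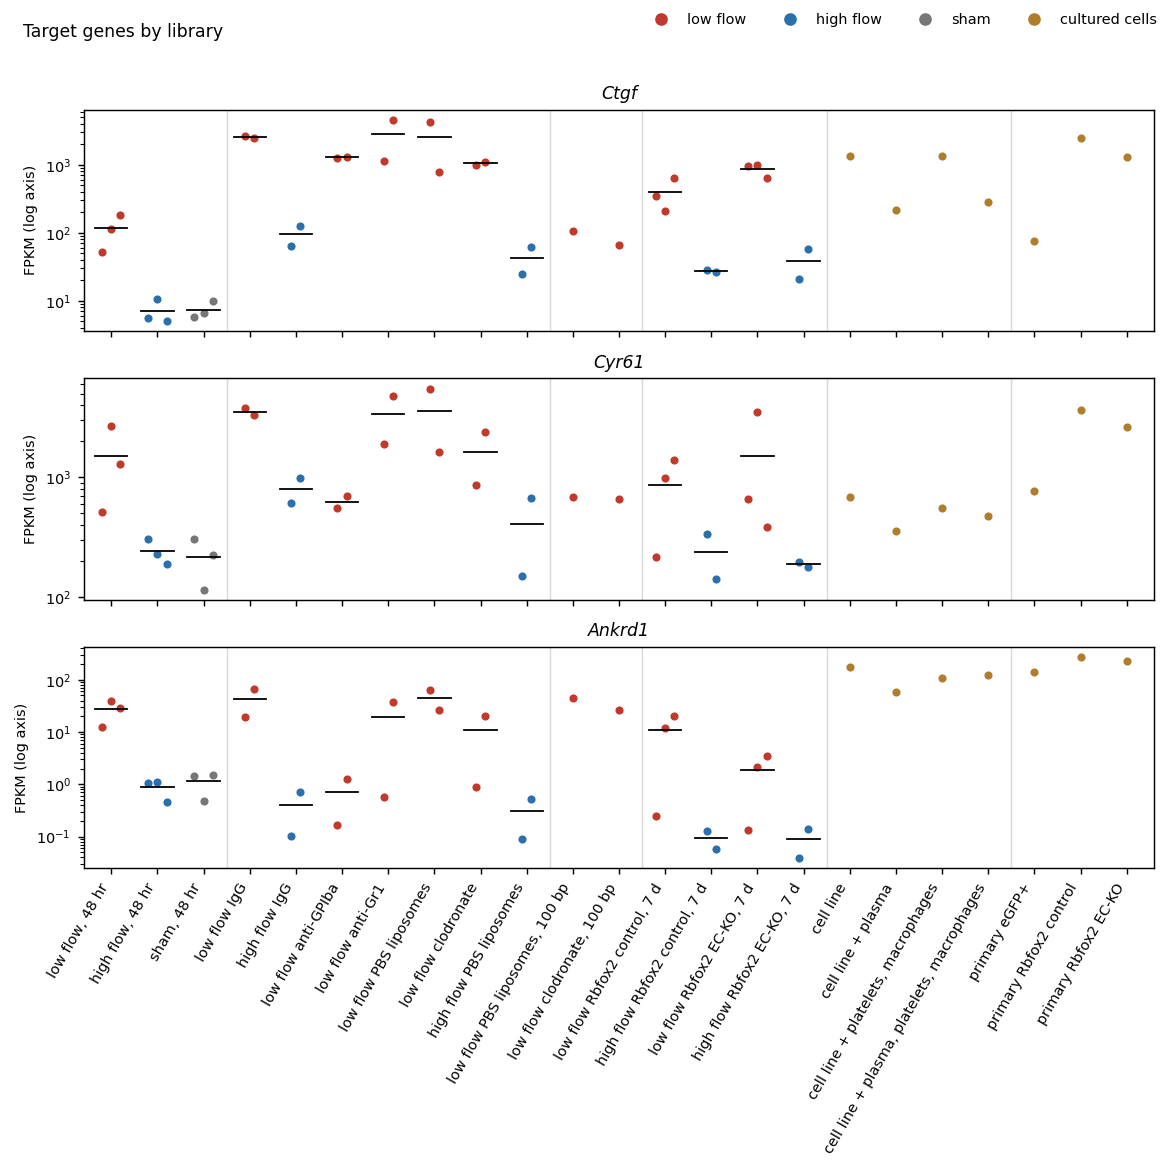
Ctgf, Cyr61 and Ankrd1 in every library, as FPKM on log axes. Points are libraries, coloured by flow or culture, horizontal lines are group means, and vertical lines separate experiments whose levels are not compared. Low-flow Ctgf sits above high-flow Ctgf in each experiment, while Ankrd1 spans from under 0.1 FPKM in some high-flow pools to 268 FPKM in cultured cells.

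Of the coactivators Wwtr1 passed against high flow and Yap1 did not, and they were not tested against each other. Wwtr1 was at 20.5, 27.1 and 19.2 FPKM at low flow, 12.1, 13.9 and 11.5 at high flow and 16.1, 13.7 and 25.1 in sham. Low flow lay above high flow without overlap (log2 fold change 0.82 ± 0.19 (SE), adjusted p = 0.00589), but sham library c, at 25.1 FPKM, reached into the low-flow range and the difference from sham did not pass (log2 fold change 0.25 ± 0.25 (SE), adjusted p = 0.451). With library totals in place of TMM the Wwtr1 log2 fold change against high flow was 0.14 (adjusted p = 0.803), so its call rests on the scaling. Yap1 gave 4.78, 4.3 and 6.14 FPKM at low flow, 7.94, 6.98 and 5.53 at high flow and 6.31, 7.14 and 6.18 in sham, and no comparison of these groups passed for it (log2 fold change -0.41 ± 0.21 (SE) against high flow, adjusted p = 0.138, and -0.39 ± 0.19 against sham, adjusted p = 0.13). Per unit length, Wwtr1 was above Yap1 in all 42 libraries of the series, by 1.52 to 15.8 times. Cyr61 was above Ctgf in 34 of the 42 and above Ankrd1 in all. Amotl2 was above Amotl1 in 30 libraries, all read at 150 bp. In the other 12, all read at 100 bp and with every untreated artery among them, Amotl1 was the higher. The part of read length and run in this order was not tested.

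The DNA-binding partners were low. Tead1 was at 1.61, 1.42 and 1.74 FPKM at low flow and 1.07, 1.43 and 1.31 at high flow, with overlap (log2 fold change 0.32 ± 0.21 (SE), adjusted p = 0.238). Tead4 had 3, 3 and 6 counts in the low-flow and 3, 4 and 4 in the high-flow libraries, too few to be tested. Its ratio of low to high flow was 1.49 times (95% counting interval 0.602 to 3.73), which covers counting error alone.

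Lats2 and Amotl2 fell at low flow. Lats2, the kinase that inhibits YAP and TAZ, was at 6.25, 5.42 and 7.95 FPKM at low flow, 9.61, 12.1 and 12.3 at high flow and 10.7, 9.81 and 8.46 in sham. Every low-flow library lay below every high-flow and sham library, with means of 6.54 ± 1.29 and 11.3 ± 1.49 FPKM at low and high flow (SD, n = 3 each; log2 fold change -0.79 ± 0.19 (SE), adjusted p = 0.00756; against sham log2 fold change -0.59 ± 0.19 (SE), adjusted p = 0.0393). Against sham the call was lost with DESeq2 (adjusted p = 0.0721) and without the filter on low counts (adjusted p = 0.0541).

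Amotl2, a junctional scaffold that can hold YAP outside the nucleus, was at 5.23, 2.94 and 8.96 FPKM at low flow, 11.8, 11.5 and 10.2 at high flow and 10.6, 12.4 and 11.3 in sham, again without overlap. Its log2 fold change was -0.92 ± 0.31 (SE) against high flow (adjusted p = 0.0295) and -0.99 ± 0.33 against sham (adjusted p = 0.0391). These Amotl2 calls were narrow. Leaving out low-flow library a or b, or high-flow library a or b, took the adjusted p against high flow to 0.0956, 0.0705, 0.0736 and 0.067. Against sham, Tead1 had a log2 fold change of 0.30 ± 0.20 (SE), with 1.12, 1.28 and 1.41 FPKM in sham, and neither it nor Amotl1 (22.1, 22 and 22.3 FPKM in sham, 0.04 ± 0.19) passed. Tead4 had 4, 7 and 8 counts in sham and was not tested. Amotl1, the relative of Amotl2, showed no such pattern between flows, at 27.2, 22.2 and 20.7 FPKM at low flow and 25, 23.1 and 25 at high flow (log2 fold change -0.07 ± 0.21 (SE), adjusted p = 0.8).

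Low flow against sham, which shares the low-flow libraries with the comparison above, called 5 of 9 members with 40.3% of all genes called. That share depends on single libraries: 4499 genes were called, but 2820 and 2775 without low-flow library a or b. Leaving out sham library a or b gave 2513 and 3008. In that comparison Lats2 lost its call without low-flow library a (adjusted p = 0.116) or b (0.122) or sham library a (0.133) or b (0.0934), and Amotl2 without any of these (0.126, 0.0803, 0.0783 and 0.0854) or without sham library c (0.0534). The opposite artery and the sham artery were then compared with each other. Of 8 members tested none was called by edgeR or DESeq2, 1 of them (Wwtr1, log2 fold change -0.57, adjusted p = 0.546) had an unadjusted p under 0.05, and 0% of all genes were called by edgeR (868 at an unadjusted p under 0.05, and 91 called by DESeq2). Ctgf differed between them by a log2 fold change of -0.06 ± 0.32 (SE).

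**Figure D2:**
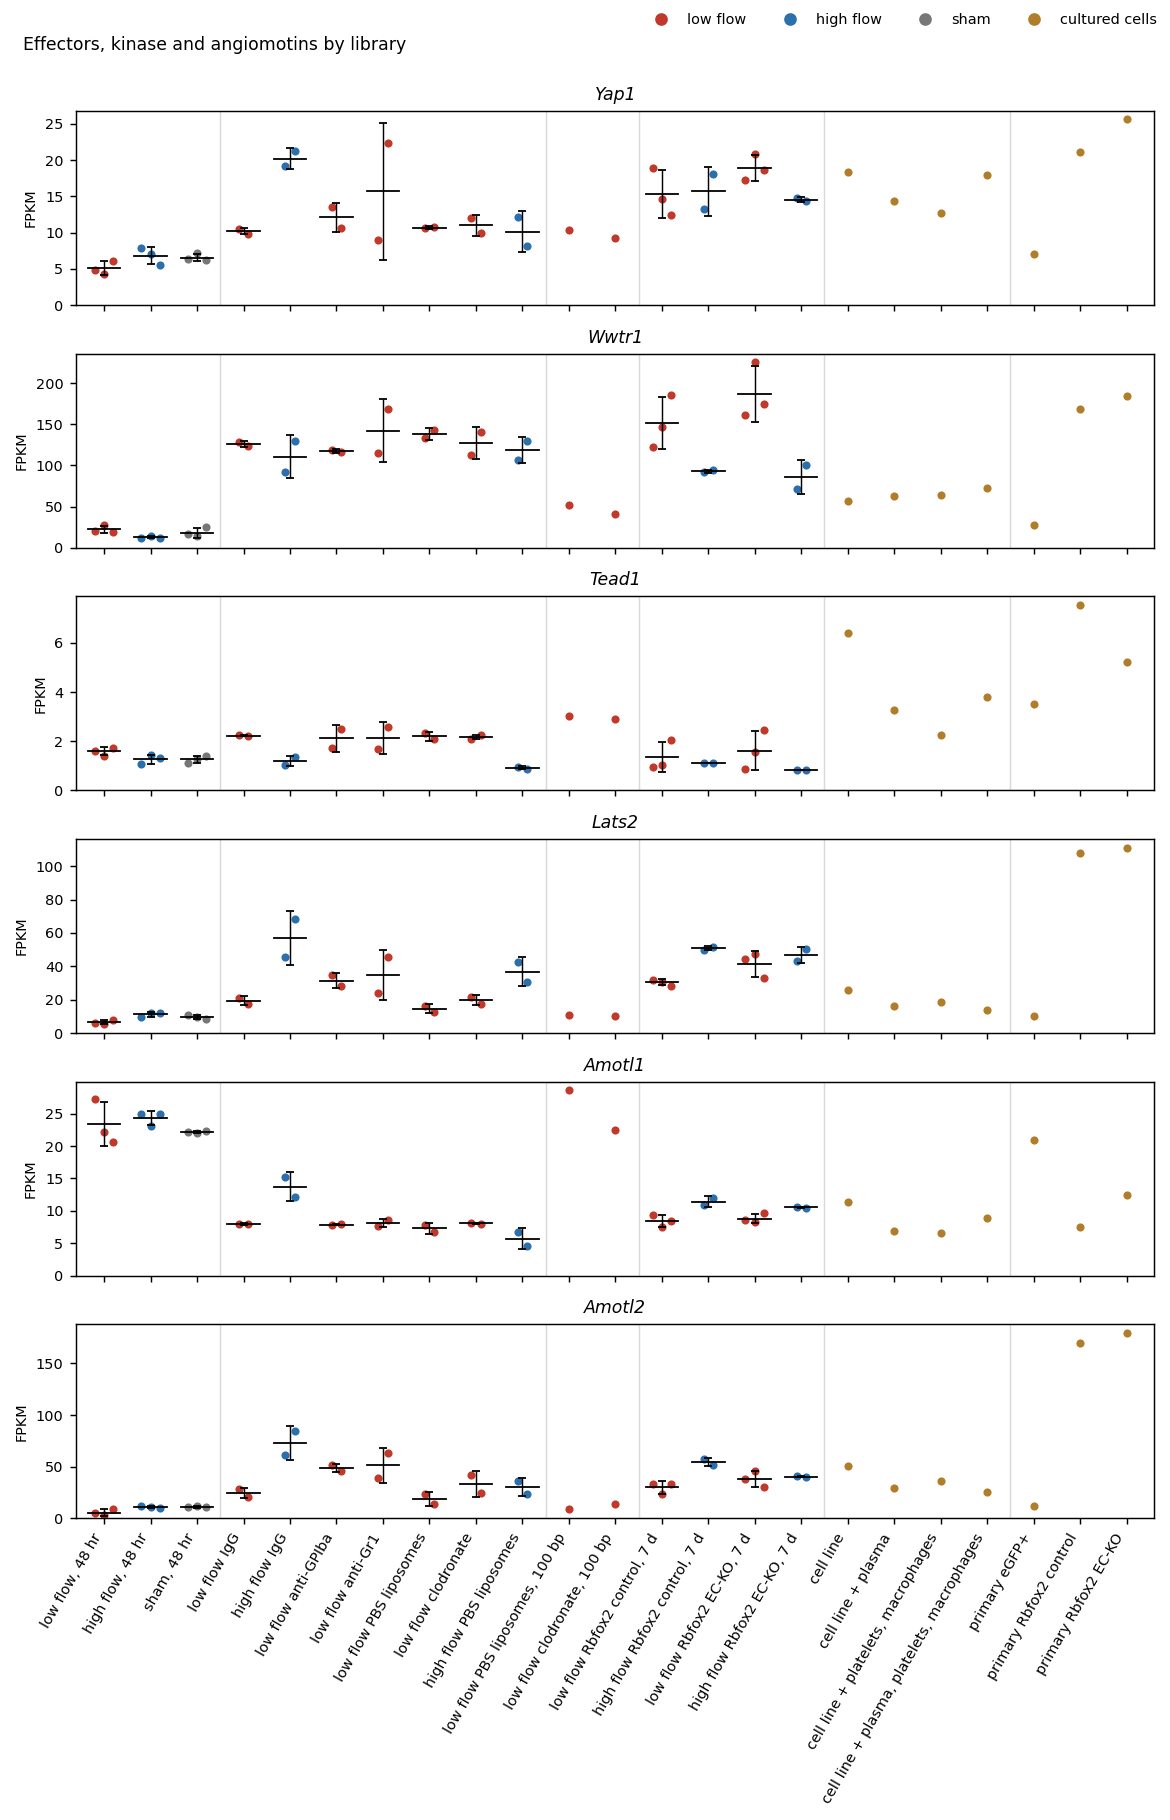
Yap1, Wwtr1, Tead1, Lats2, Amotl1 and Amotl2 in every library, as FPKM on linear axes from 0. Points are libraries, horizontal lines means and vertical bars SD where a group has 2 or 3 libraries. Lats2 is lower at low than at high flow in the untreated, IgG and PBS liposome pairs, and Yap1 averages 10.2 FPKM at low and 20.2 at high flow under IgG.

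The flow difference was measured again in mice given control IgG or PBS liposomes. Here low-flow pools were sequenced in an earlier run than high-flow pools, as the column headers show, so flow and run cannot be told apart. Under IgG 8 of 10 members passed, 4 higher and 4 lower, with 40.5% of genes called (22.8% higher, 17.7% lower). Under PBS liposomes 5 of 10 passed, 4 higher and 1 lower, with 35% called (19.6% higher, 15.5% lower). The members' median log2 fold changes were 0.42 under IgG and 0.75 under PBS liposomes, against 0.07 and 0.06 over all genes. The share of all genes called depends on single libraries too: 5422 genes were called under IgG, but 3581 without high-flow library 1 and 2141 without low-flow library 2, and 4692 under PBS liposomes, but 1482 without high-flow library 1, 2911 without low-flow library 1 and 2172 without low-flow library 2.

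Ctgf was at 2691 and 2439 FPKM in the IgG low-flow libraries 1 and 2 and 63 and 128 in the high-flow ones (log2 fold change 4.75 ± 0.88 (SE), adjusted p = 0.00264). With PBS liposomes it was at 4303 and 779.8 FPKM at low and 24.7 and 61.2 at high flow (log2 fold change 5.89 ± 0.93 (SE), adjusted p = 0.00128), so the low-flow pools differed from each other by several fold and still stood above both high-flow pools. The call for Ctgf held with any single library left out in both pairs. Cyr61 gave 3773 and 3299 against 605 and 984 FPKM under IgG (log2 fold change 2.15 ± 0.78 (SE), adjusted p = 0.0455) and 5510.4 and 1609 against 150.0 and 664 under PBS (log2 fold change 3.13 ± 0.81 (SE), adjusted p = 0.0126). Neither pair overlapped. Ankrd1 rose from 0.102 and 0.717 FPKM at high flow to 19.7 and 65.9 at low flow under IgG (log2 fold change 6.67 ± 2.03 (SE), adjusted p = 0.0226), and from 0.0892 and 0.516 to 64.1 and 25.9 under PBS (log2 fold change 7.18 ± 2.08 (SE), adjusted p = 0.0209). Its high-flow libraries held 2 and 15 counts under IgG and 2 and 12 under PBS, and the pooled ratio of low to high flow was 106 times (95% counting interval 65.8 to 182) under IgG and 145 times (95% counting interval 86.1 to 265) under PBS. Under IgG, leaving out any library ended the Cyr61 call (adjusted p = 0.0992 to 0.203), and leaving out high-flow library 1 (0.129), high-flow library 2 (0.0779) or low-flow library 2 (0.0918) ended that of Ankrd1. Under PBS, Cyr61 lost its call without high-flow library 1 (0.0972) or low-flow library 1 (0.0994), and Ankrd1 without high-flow library 1 (0.147) or 2 (0.0692) or low-flow library 1 (0.0615).

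Lats2 was lower at low flow in both pairs. Its values were 21.2 and 17.4 against 45.7 and 68.4 FPKM under IgG (log2 fold change -1.56 ± 0.33 (SE), adjusted p = 0.00438) and 16.5 and 12.7 against 42.8 and 30.7 under PBS (log2 fold change -1.34 ± 0.32 (SE), adjusted p = 0.0095). Amotl2 fell under IgG, from 61.2 and 84.4 to 28.2 and 21.2 FPKM (log2 fold change -1.56 ± 0.37 (SE), adjusted p = 0.00752), and was at 23.4 and 13.7 against 36.5 and 24.1 FPKM under PBS, without overlap but past no threshold (log2 fold change -0.71 ± 0.36 (SE), adjusted p = 0.148). Leaving out IgG low-flow library 2 ended the calls of Lats2 (adjusted p = 0.05, just over the threshold) and Amotl2 (0.0759), and under PBS Lats2 lost its call without high-flow library 1 (0.0898) or low-flow library 2 (0.088).

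Tead1, which did not pass in untreated arteries, was higher at low flow in both pairs, at 2.25 and 2.21 against 1.04 and 1.34 FPKM under IgG (log2 fold change 0.91 ± 0.29 (SE), adjusted p = 0.0298) and 2.33 and 2.08 against 0.967 and 0.882 under PBS (log2 fold change 1.25 ± 0.30 (SE), adjusted p = 0.00838). Its IgG call was lost without high-flow library 1 (adjusted p = 0.143), low-flow library 1 (0.0909) or low-flow library 2 (0.11), and its PBS call without high-flow library 1 (0.0581). Yap1 and Amotl1 passed under IgG alone. Yap1 was at 10.5 and 9.87 FPKM at low and 19.2 and 21.2 at high flow (log2 fold change -0.99 ± 0.36 (SE), adjusted p = 0.0452), and Amotl1 at 7.91 and 8.04 FPKM at low and 15.3 and 12.2 at high flow (log2 fold change -0.79 ± 0.22 (SE), adjusted p = 0.0148). Under PBS neither passed. Yap1 was at 10.6 and 10.8 against 12.1 and 8.19 FPKM and Amotl1 at 7.88 and 6.73 against 6.82 and 4.53, with log2 fold changes of 0.07 ± 0.35 (SE) for Yap1 and 0.36 ± 0.22 for Amotl1, and the difference between the pairs was not tested. The Yap1 call was lost without any one of its libraries (adjusted p = 0.0997 to 0.191) and that of Amotl1 without high-flow library 1 (0.103), low-flow library 1 (0.0698) or low-flow library 2 (0.0879). Wwtr1 did not pass in either pair, at 128 and 123 against 92 and 129 FPKM under IgG and 133 and 143 against 107 and 129.6 under PBS. Tead4 did not pass either, at 1.97 and 1.6 against 1.06 and 1.21 FPKM under IgG (log2 fold change 0.65 ± 0.50 (SE), adjusted p = 0.309) and 2.83 and 3.84 against 1.43 and 1.6 under PBS (log2 fold change 1.13 ± 0.49 (SE), adjusted p = 0.0951). Smooth muscle markers summed to 4236 to 4688 against 560.4 to 853 CPM under IgG and 3235 to 6362 against 517 to 925 CPM under PBS, but only 2 of the 9 passed as higher in each pair and the list medians were -0.43 and 0.03. Macrophage markers summed to 2078 to 2257 against 162 to 441 CPM under IgG (7 of 10 higher, median 3.25) and 1409 to 2328 against 199.7 to 268 CPM under PBS (6 of 10 higher, median 2.94). Neutrophil markers were higher for 6 of 9 in each pair (medians 3.91 and 5.37), and fibroblast markers lower for 3 of 8 under IgG (289 to 366 against 1129 to 1140.4 CPM) and 2 of 8 under PBS (179.5 to 246 against 533 to 675 CPM). Endothelial markers summed to 4861 to 5458 CPM at low against 14057 to 14733 at high flow under IgG, and 4895 to 5139 against 9997 to 12568 under PBS. They went both ways, with 2 of 11 higher and 4 lower in each pair and medians of -0.61 and 0.07. The part of these cells in the values of the members was not tested.

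**Figure D3:**
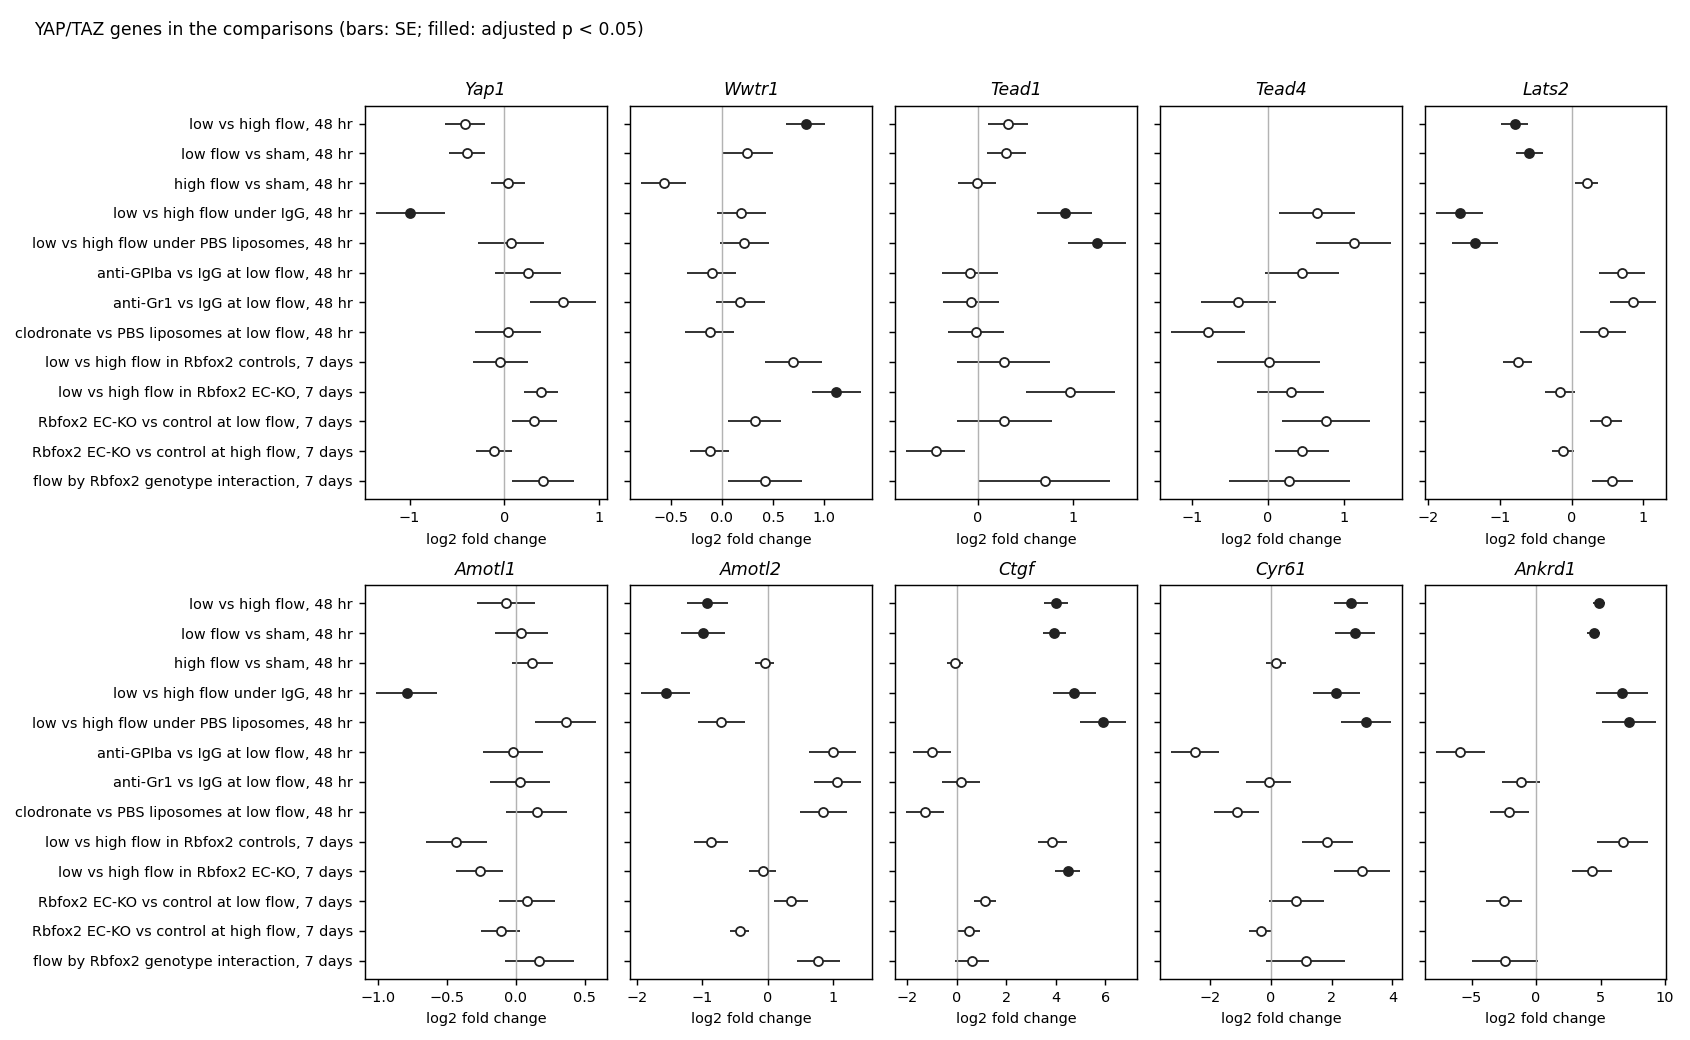
Log2 fold changes of the 10 genes in the 13 tests, from edgeR, with SE as horizontal bars. Filled points have an adjusted p under 0.05 over all genes, and a missing point was not tested. Ctgf is filled in 5 of the 6 rows that compare low flow with high flow or sham, and no gene is filled in the depletion, genotype or interaction rows.

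The depletions asked which blood cells the flow response needs. Anti-GPIba and anti-Gr1 were compared with the IgG low-flow libraries that also enter the flow comparison above, as clodronate was with the PBS ones, so these comparisons are not independent. With anti-GPIba none of the 10 members passed in edgeR, where 16.5% of genes did. Unadjusted p-values were under 0.05 for 4 members, Cyr61, Ankrd1, Amotl2 and Lats2, and the first 3 of these were called by DESeq2. Of all 13401 genes tested, 4912 had an unadjusted p under 0.05 and 3690 were called by DESeq2, so these shares of the members are near those of all genes. Cyr61 was at 550.5 and 697 FPKM with anti-GPIba against 3773 and 3299 with IgG (log2 fold change -2.50 ± 0.79 (SE), adjusted p = 0.0506), and the pools did not overlap. Ankrd1 was at 0.166 and 1.27 against 19.7 and 65.9 FPKM (log2 fold change -5.88 ± 1.89 (SE), adjusted p = 0.0532). In DESeq2 the adjusted p was 0.0163 for Cyr61, 0.00757 for Ankrd1 and 0.0299 for Amotl2, and with the 2 groups fitted alone edgeR gave 0.00111, 0.00464 and 0.0113.

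Ctgf in the anti-GPIba pools lay between the IgG low-flow and high-flow pools. It was at 1240.3 and 1321 FPKM with anti-GPIba against 2691 and 2439 with IgG (log2 fold change -1.0 ± 0.76 (SE), adjusted p = 0.354), and with the 2 groups fitted alone the change was -0.95 (adjusted p = 0.012). The high-flow pools held 63 and 128 FPKM under IgG and 24.7 and 61.2 under PBS. Cyr61 of the anti-GPIba pools was within the range of these 4 high-flow pools, and Ankrd1 was within it in pool 1 and above it in pool 2. Amotl2 was at 51.9 and 46.1 FPKM against 28.2 and 21.2 (log2 fold change 0.99 ± 0.36 (SE), adjusted p = 0.0764), and Lats2 at 34.6 and 28.2 against 21.2 and 17.4 (log2 fold change 0.70 ± 0.32 (SE), adjusted p = 0.136). Both lay above the IgG pools without overlap. Yap1 was at 13.5 and 10.7 against 10.5 and 9.87 FPKM, Wwtr1 at 119 and 116 against 128 and 123, Tead1 at 1.72 and 2.51 against 2.25 and 2.21, Tead4 at 2.74 and 2.13 against 1.97 and 1.6 and Amotl1 at 7.81 and 7.96 against 7.91 and 8.04. Their log2 fold changes ran from -0.10 to 0.45, none past the test. With anti-GPIba the smooth muscle markers summed to 714 to 1006 CPM against 4236 to 4688 with IgG. Acta2 (-2.90) and Tagln (-1.58) carried that sum, 2 of the 9 markers passed as lower and none as higher, and the median log2 fold change of the list was -0.22. Macrophage markers summed to 215 to 304 against 2078 to 2257 CPM (6 of 10 lower, median -2.55) and endothelial markers to 9099 to 9217 against 4861 to 5458 CPM (2 of 11 higher, median 0.38). Neutrophil markers summed to 6.31 to 11 against 135 to 375 CPM (6 of 9 lower, median -4.25) and platelet markers to 6.46 to 17 against 29.6 to 30.8 CPM (1 of 6 lower, median -1.68). The part of these cells in the values above was not tested.

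**Figure D4:**
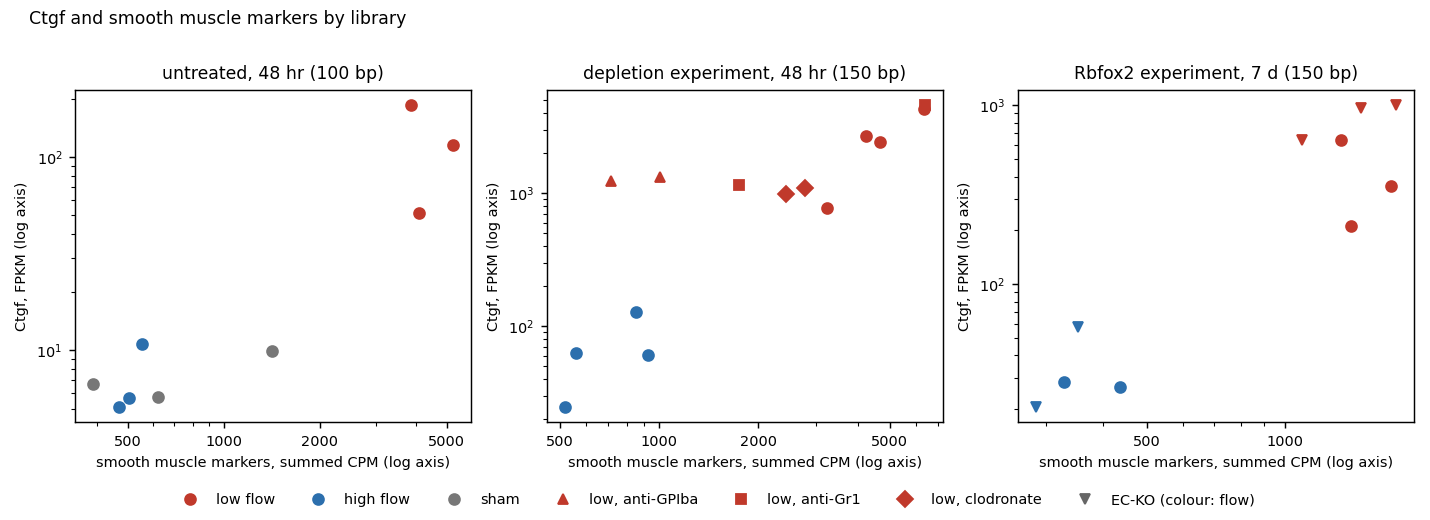
Ctgf in FPKM against the summed CPM of 9 smooth muscle markers, both on log axes, in 3 experiments. Points are libraries, coloured by flow and shaped by treatment or genotype. The anti-GPIba pools lie at smooth muscle sums of 714 to 1006 CPM, near those of the high-flow pools, with Ctgf at 1240.3 and 1321 FPKM.

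Anti-Gr1 pools 1 and 2 were unlike each other. Ctgf was at 1151 and 4604 FPKM, Cyr61 at 1889 and 4800.2 and Ankrd1 at 0.564 and 37.7, with pool 1 below both IgG pools for each target gene. Pool 2 was above both for Ctgf and Cyr61 and between them for Ankrd1, and none of the 10 members passed. The 0% of genes called by edgeR compare with 2432 at an unadjusted p under 0.05 and 171 called by DESeq2. Of the members, Lats2 (log2 fold change 0.85 ± 0.32 (SE), adjusted p = 0.245) and Amotl2 (log2 fold change 1.06 ± 0.36 (SE), adjusted p = 0.243) were under 0.05 before adjustment, and none was called by DESeq2. Yap1 was at 9.02 and 22.4 FPKM in pools 1 and 2, Wwtr1 at 115 and 169, Tead1 at 1.68 and 2.58, Tead4 at 1.22 and 1.51 and Amotl1 at 7.69 and 8.56. Their log2 fold changes against IgG ran from -0.39 for Tead4 to 0.62 for Yap1. Pool 1 held 1746 CPM of smooth muscle markers and pool 2 held 6402. Neutrophil markers summed to 19 to 39.3 CPM against 135 to 375 with IgG, macrophage markers to 917 to 1361 against 2078 to 2257 and fibroblast markers to 727 to 933 against 289 to 366, with no marker of these lists past the test. Their part in the values of the members was not tested.

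Clodronate liposomes were set against PBS liposomes. Ctgf was at 988 and 1102 FPKM with clodronate and 4303 and 779.8 with PBS (log2 fold change -1.28 ± 0.76 (SE), adjusted p = 0.439), with the clodronate pools between the PBS pools. For Cyr61 the values were 853 and 2398 against 5510.4 and 1609 FPKM, which overlapped, and for Ankrd1 0.888 and 20.5 against 64.1 and 25.9, which did not (log2 fold change -2.07 ± 1.54 (SE), adjusted p = 0.535). No member passed with either tool, 1 (Amotl2, log2 fold change 0.85 ± 0.36 (SE), adjusted p = 0.315) had an unadjusted p under 0.05, as did 2002 of all 13401 genes, and 0.119% of genes were called by edgeR and 462 genes by DESeq2. Lats2 was at 21.7 and 17.7 against 16.5 and 12.7 FPKM, Wwtr1 at 113 and 141 against 133 and 143 and Yap1 at 12 and 10 against 10.6 and 10.8. Tead1 was at 2.11 and 2.24 against 2.33 and 2.08 FPKM, Tead4 at 0.955 and 2.9 against 2.83 and 3.84 and Amotl1 at 8.18 and 8.03 against 7.88 and 6.73. Macrophage markers summed to 268 to 282 CPM with clodronate and 1409 to 2328 with PBS (2 of 10 lower, median -2.57). Neutrophil markers summed to 30 to 40.3 against 124 to 363 CPM (median -2.48) and smooth muscle markers to 2426 to 2764 against 3235 to 6362 CPM (median 0.24). Endothelial markers summed to 6338 to 8497 against 4895 to 5139 CPM (median 0.15). No marker of these other lists passed the test. The part of these cells in the values of the members was not tested. In the single 100 bp pools, which have no replicates and no test, Ctgf was at 105 FPKM with PBS and 65.2 with clodronate, Cyr61 at 684 and 652, Ankrd1 at 43.8 and 26.5, and Lats2 at 10.6 and 10.1.

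At 7 d flow was compared within each Rbfox2 genotype. Rbfox2 itself, a splicing factor, stood at 2.76 to 5.58 FPKM in the control and 0.174 to 1.08 FPKM in the EC-KO intima. The libraries carry the numbers 1, 4 and 5 at low flow and 4 and 5 at high flow, and low-flow libraries 1 came from the earlier run. In controls no member passed in edgeR, where 0.0234% of genes did, although unadjusted p-values of 5 members (Ctgf, Ankrd1, Wwtr1, Lats2 and Amotl2) were under 0.05 and 3 (Ctgf, Ankrd1 and Lats2) were called by DESeq2. Over all 12795 genes these counts were 2240 and 1280. Ctgf was at 352, 212 and 637 FPKM at low flow and 28.5 and 26.7 at high flow, with every low-flow pool above both high-flow pools (log2 fold change 3.86 ± 0.57 (SE), adjusted p = 0.184). Cyr61 was at 215, 978 and 1396 against 335 and 140.5 FPKM, with library 1 inside the high-flow range (log2 fold change 1.86 ± 0.83 (SE), adjusted p = 0.307). Ankrd1 was at 0.248, 11.8 and 20.3 against 0.128 and 0.0579 FPKM, and its high-flow libraries held 3 and 1 counts (log2 fold change 6.72 ± 1.98 (SE), adjusted p = 0.222). Wwtr1 was at 122, 147 and 185 against 91.7 and 94.1 FPKM (log2 fold change 0.70 ± 0.28 (SE), adjusted p = 0.281), without overlap. Lats2, at 32, 30.7 and 28.4 against 50 and 51.6 FPKM (log2 fold change -0.75 ± 0.20 (SE), adjusted p = 0.216), and Amotl2, at 33.7, 23.2 and 33.4 against 57.5 and 51.9 (log2 fold change -0.86 ± 0.26 (SE), adjusted p = 0.223), again lay lower at low flow without overlap. Yap1 was at 18.9, 14.7 and 12.4 against 13.3 and 18.1 FPKM, Tead1 at 0.973, 1.05 and 2.05 against 1.12 and 1.13, Tead4 at 1.26, 3.84 and 1.53 against 2.4 and 1.96 and Amotl1 at 9.41, 7.5 and 8.49 against 10.9 and 12, none past the test. Low-flow library 1 decided the count: without it 6 members passed, Ctgf (log2 fold change 3.97, adjusted p = 0.00695), Cyr61 (2.34, 0.0173), Ankrd1 (7.30, 0.00279), Wwtr1 (0.87, 0.0202), Lats2 (-0.75, 0.0202) and Amotl2 (-0.93, 0.0317). The calls over all genes rose too, from 3 of 12795 with that library to 3341 of 12322 without it.

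In EC-KO mice 2 members passed in edgeR, Ctgf and Wwtr1, with 6.61% of genes called and a member median of 0.68 against 0.01 over all genes. DESeq2 called 3 members, Ankrd1 as well, and 2078 of 12971 genes. Where 858 genes were called with all libraries, the count was 238 and 204 without high-flow library 4 or 5 and 470 and 421 without low-flow library 4 or 5. Ctgf was at 970.3, 1001 and 643 FPKM at low flow and 20.6 and 57.7 at high flow (log2 fold change 4.48 ± 0.51 (SE), adjusted p = 0.00441). Wwtr1 was at 161, 225 and 174 against 71 and 100.5 FPKM (log2 fold change 1.12 ± 0.24 (SE), adjusted p = 0.0376), a call lost without high-flow library 4 (adjusted p = 0.233) or 5 (0.0733) or low-flow library 4 (0.0878) or 5 (0.0847). Cyr61 was higher in each low-flow pool, at 654, 3484 and 385 against 197 and 179 FPKM, but its pools spread widely (log2 fold change 3.01 ± 0.92 (SE), adjusted p = 0.0994). Ankrd1 was at 0.132, 2.16 and 3.4 against 0.0382 and 0.142 FPKM with overlap, a pooled 18.6 times (95% counting interval 7.78 to 58.4) the counts. In edgeR Ankrd1 passed without low-flow library 1 (4.86, adjusted p = 0.0437). Lats2 and Amotl2 overlapped between flows in EC-KO, at 44.2, 47.6 and 32.9 against 43.3 and 50.2 FPKM and 37.7, 46.2 and 30.6 against 40.9 and 40.2 FPKM. Yap1 was at 17.3, 20.9 and 18.6 against 14.8 and 14.3 FPKM, Tead1 at 0.873, 1.56 and 2.44 against 0.841 and 0.825, Tead4 at 2.53, 5.38 and 3.13 against 2.93 and 3.05 and Amotl1 at 8.54, 8.27 and 9.63 against 10.6 and 10.5, and none of these passed. The low-flow pool with the highest Cyr61, library 4, also held 3592 CPM of fibroblast markers, against 1039 and 1101 CPM in libraries 1 and 5. In EC-KO, smooth muscle markers summed to 1087 to 1749 CPM at low and 286 to 353 at high flow (2 of 9 higher, median 0.26), macrophage markers to 703 to 1458 and 139 (6 of 10 higher, median 3.74) and endothelial markers to 6856 to 7614 and 12297 to 12950.0 (1 of 11 higher, 4 lower, median -0.55). In controls the smooth muscle sums were 1323 to 1706 and 329 to 437 CPM (median 0.03), the macrophage sums 329 to 1500.3 and 155 to 204 (median 3.46) and the endothelial sums 5095 to 7998 and 12420.0 to 13255 (median -0.73), with no marker of these lists past the test. Their part in the values of the members was not tested. High-flow arteries are the opposite arteries of ligated mice, but whether pools of 1 number hold the same mice is not given in the sources used here. Low-flow library 1 has no high-flow partner, so a block on the number also takes it out of the flow contrast. With that block, 6 members and 3843 genes passed in controls, where 0 and 3 did without it and 6 and 3341 did when library 1 alone was left out, and in EC-KO 1 member (Ctgf) and 657 genes passed, where 2 and 858 did without it.

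Deletion of Rbfox2 changed no member past the threshold at low flow, where 0% of genes passed in edgeR, 404 had an unadjusted p under 0.05 and 9 were called by DESeq2. Ctgf, the only member with an unadjusted p under 0.05, was at 970.3, 1001 and 643 FPKM in EC-KO and 352, 212 and 637 in control pools, higher in each EC-KO pool than in any control pool, at the closest 643 against 637 (log2 fold change 1.14 ± 0.43 (SE), adjusted p = 0.91). Lats2 was at 44.2, 47.6 and 32.9 against 32, 30.7 and 28.4 FPKM, also without overlap (log2 fold change 0.48 ± 0.22 (SE), adjusted p = 0.91). Fibroblast markers summed to 1039 to 3592 CPM in the EC-KO and 464 to 1040.4 CPM in the control low-flow pools (list median 0.82 on the log2 scale, none of 8 past the test), and macrophage markers to 703 to 1458 and 329 to 1500.3 CPM. Neutrophil markers summed to 8.24 to 39.9 CPM in EC-KO and 19.6 to 380.2 CPM in control pools, the highest in control library 4 (list median -2.91, none of 6 past the test). Their part in the Ctgf and Lats2 values was not tested. The low-flow pools of both genotypes overlapped for the other 8 members. Library numbers are no known pairing. Compared by number, Ankrd1 was lower in EC-KO each of the 3 times, at 0.132, 2.16 and 3.4 against 0.248, 11.8 and 20.3 FPKM (log2 fold change -2.48 ± 1.41 (SE), adjusted p = 0.91). Tead4 was higher each time, at 2.53, 5.38 and 3.13 against 1.26, 3.84 and 1.53 FPKM (log2 fold change 0.77 ± 0.58 (SE), adjusted p = 0.91). Neither passed, and Ankrd1 lay on the other side from Ctgf. At high flow 0.00803% of genes passed and no member, with Amotl2 at 40.9 and 40.2 against 57.5 and 51.9 FPKM the only 1 with an unadjusted p under 0.05 (log2 fold change -0.43 ± 0.14 (SE), adjusted p = 0.603). The interaction, which tests whether the flow difference itself depends on the genotype, called 0% of genes in edgeR (538 at an unadjusted p under 0.05, 11 in DESeq2) and no member with either tool. Amotl2 was the only member with an unadjusted p under 0.05 there (log2 fold change 0.77 ± 0.33 (SE), adjusted p = 0.986), and for Ctgf the interaction was 0.62 ± 0.70 (SE).

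Cultured endothelial cells, 1 library each and so without a test, expressed the target genes without flow. The cell line held only 292 to 369.5 CPM of the 11 endothelial markers, against 4053 to 5084 CPM in primary cells, and Erg, an endothelial transcription factor, was at or below 0.358 CPM in it. In the line with no addition Ctgf was at 1369 FPKM, with 10% plasma at 220.2, with platelets and macrophages at 1328, and with all of these at 285. Both cultures with plasma were lower than both without. Cyr61 followed the same order of pairs on a smaller scale, at 688 and 555 FPKM without plasma and 355 and 476 with it. Ankrd1 did not, at 173 FPKM with no addition, 59.1 with plasma, 108 with cells and 122 with all. In the same order Lats2 was at 25.9, 16.2, 18.5 and 14.1 FPKM and Amotl2 at 51.2, 29.6, 36.4 and 26, both lower in the plasma cultures. Tead1 was at 6.4, 3.26, 2.24 and 3.8 FPKM, Tead4 at 0.356, 0.224, 0.544 and 0.424, and Amotl1 at 11.3, 6.87, 6.52 and 8.87. Wwtr1 lay between 56.6 and 73 FPKM and Yap1 between 12.7 and 18.3 in the 4 cultures.

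Primary eGFP+ cells were kept 5 days in culture and read at 100 bp, and primary Rbfox2 control and EC-KO cells 7 days and read at 150 bp. The control and EC-KO cells held Ctgf at 2470.3 and 1288 FPKM, Cyr61 at 3623 and 2616, and Ankrd1 at 268 and 227. All were lower in EC-KO. Lats2 (108 and 111 FPKM) and Amotl2 (169.9 and 179 FPKM) were slightly higher in EC-KO, as were Wwtr1 (168 and 184 FPKM) and Yap1 (21.1 and 25.7 FPKM), while Tead1 was at 7.56 and 5.24 FPKM, Tead4 at 2.01 and 0.7 and Amotl1 at 7.56 and 12.4. In the eGFP+ cells the targets stood at 76.1, 763 and 139.8 FPKM. Smooth muscle markers summed to 2663 CPM in eGFP+, 5799 in control and 4585 in EC-KO cells.

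The wider pathway was read from lists of Hippo pathway genes and of published YAP/TAZ targets taken from general knowledge. Ptpn14 stands in both the upstream and the target list, so counts of these lists share it. Between low and high flow at 48 hr, 7 of 14 tested other target genes passed, 5 higher and 2 lower, where 46.2% of all genes passed, so the share is near that of all genes. The list median was 0.13 against -0.07 over all genes. Of 15 upstream regulators 1 was higher and 2 lower, of 6 core kinase genes 1 (Stk4, log2 fold change 0.89 ± 0.25 (SE), adjusted p = 0.0152) was higher, and neither of 2 tested TEAD partners passed. Igfbp3, a secreted binding protein of insulin-like growth factors, was at 17.1, 16.4 and 12.6 FPKM at low flow and 0.0917, 0.0603 and 0.0809 at high flow (log2 fold change 7.46 ± 0.36 (SE), adjusted p = 1.2e-06). The kinase gene Nuak2 was at 1.48, 1.94 and 1.69 against 0.426, 0.0933 and 0.125 FPKM (log2 fold change 3.03 ± 0.49 (SE), adjusted p = 0.000583), and Gadd45a, which responds to stress, at 23.7, 23.6 and 19.7 against 2.53, 2.95 and 2.58 (log2 fold change 3.02 ± 0.24 (SE), adjusted p = 5.21e-06). All groups were apart, as the rule that picked the named genes, raised and lowered, required. On the other side were Ptpn14, a phosphatase that binds YAP, at 3.18, 2.17 and 4.83 against 9.09, 11.3 and 9.62 FPKM (log2 fold change -1.55 ± 0.26 (SE), adjusted p = 0.000779), Rbms3, an RNA-binding protein, at 3.04, 3.19 and 4.65 against 7.4, 7.37 and 6.97 (log2 fold change -0.99 ± 0.20 (SE), adjusted p = 0.0022), and Wwc2, an upstream scaffold, at 2.12, 3.11 and 3.78 against 4.96, 5.41 and 4.57 (log2 fold change -0.72 ± 0.23 (SE), adjusted p = 0.0266). Low flow therefore went with both raised and lowered genes of the target list.

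The lists were counted in the other comparisons as well. Of the upstream regulators 0 of 15 were higher and 3 lower against sham, 1 of 16 higher and 6 lower under IgG (list median -0.67 against 0.07 over all genes), and 0 of 16 higher and 2 lower under PBS liposomes. Among core kinase genes Stk3 and Stk4 were higher against sham and Lats1 was lower under IgG, where the TEAD partner Vgll4 was higher. With anti-GPIba Ptpn14 was the only upstream regulator past the test, and at 7 d no gene of these 3 lists passed between flows. Against sham 5 of 13 other targets were higher and 2 lower, where 40.3% of all genes passed. Under IgG 4 of 17 were higher and 5 lower, with 40.5% of all genes past the test, and under PBS liposomes 6 of 17 were higher and 4 lower, with 35%. At 7 d 4 of 17 were higher in EC-KO, with 6.61% of all genes past the test, and none passed in controls. Anti-GPIba against IgG called 7 of 17, 4 higher and 3 lower, with 16.5% of all genes called. These calls rest on every library: where 2216 genes were called with all, the count was 15 and 1 without anti-GPIba library 1 or 2 and 83 and 89 without IgG library 1 or 2. With all libraries, Nuak2 fell to 0.601 and 0.75 FPKM from 6.2 and 4.61 (log2 fold change -3.0 ± 0.69 (SE), adjusted p = 0.027), Igfbp3 to 4.84 and 0.346 from 153 and 397 (log2 fold change -6.73 ± 1.97 (SE), adjusted p = 0.0414), and Ptpn14 rose to 17.9 and 14.6 from 7.95 and 4.64 (log2 fold change 1.37 ± 0.41 (SE), adjusted p = 0.043), as did Rbms3 (log2 fold change 1.12 ± 0.31 (SE), adjusted p = 0.0371). Gadd45a, at 34 and 33.6 against 61.9 and 76.9 FPKM, did not pass (log2 fold change -1.04 ± 0.50 (SE), adjusted p = 0.155), nor did Wwc2 (log2 fold change 0.29 ± 0.35 (SE), adjusted p = 0.576). No gene of the 4 lists passed with anti-Gr1, clodronate, Rbfox2 deletion or in the interaction.

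Over all 35 carotid libraries, the genes most like Ctgf in log2(CPM + 1), among 10497 genes with a mean of at least 5 CPM, were Fjx1 (Pearson r = 0.93), Ctps (0.92), Sox4 (0.89), Gadd45a (0.89) and Gadd45b (0.89). Those most like Cyr61 were Fhl2 (0.87), Bcl10 (0.86), Myc (0.85), Bag2 (0.84) and Edn1 (0.83). Ctgf and Cyr61 had r = 0.80 with each other. Fjx1 and Gadd45a belong to the list of other target genes. The CPM of this comparison were scaled to plain library totals, without TMM. These libraries come from experiments that differ in depth, read length and sequencing run, and the values are a description without a test.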

How the data were processed

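The authors sequenced pooled carotid flushes and cultured cells, and deposited RSEM estimated counts (expected counts) per gene with effective lengths. Per the submitters' processing notes, STAR 2.5.1b and RSEM 1.2.15 are named, with the build mm9. The study's methods name TopHat for the untreated triplicates, while a source data legend names STAR for its gene test of low against high flow. Which of them made the untreated columns used here is not settled. Estimated counts were rounded, and 1 row without a gene name and 162 columns that could not be tied to a sample or were not needed here were left out. Genes were tested with edgeR's quasi-likelihood test (filterByExpr, TMM scaling, Benjamini-Hochberg over all genes tested, adjusted p < 0.05), in 13 comparisons. FPKM are counts divided by effective length and by the TMM-scaled library total. Untreated columns carry the letters A to C (low flow), D to F (high flow) and G to I (sham). They are called a, b and c within each group here, and equal letters mark no matched pools. Same-numbered low-flow libraries at 7 d deviated together (correlations 0.56, 0.20 and 0.42), so EC-KO and control were also compared by number there. Both libraries 1 came from the earlier run, so these correlations cannot tell a pairing of pools from the run. Values of 0.60 and 0.61 also stood between same-numbered 48 hr groups of different treatment (clodronate with low-flow IgG and with high-flow PBS). The design gives no such pairing, and a block on the numbers changed no call of a member for EC-KO against control at low flow. The 10 genes and the lists were chosen with earlier results of these data known. All 10 were read in every comparison. From the upstream and target lists those named are the 3 raised and the 3 lowered whose called, non-overlapping change was largest at low against high flow, 48 hr. For likeness the 5 best genes are named. Alternatives were DESeq2, RLE scaling, library totals, no filter, other fits and each library left out. On data simulated from low against high flow at 48 hr, with 200 of 11197 genes changed by a log2 fold change of 2, edgeR recovered 99.5%. At the same size it recovered 97% for anti-GPIba against IgG (13083 genes), 100.0% for flow in 7 d controls (12741 genes), 100.0% and 98.5% for EC-KO against control at low and high flow (12745 and 12484 genes) and 86% for the interaction (13072 genes). The simulated spread was a fixed dispersion of 0.05, not that of the pools, so these shares do not tell how many real changes were missed. Results of 1 marker list are not reported here. Versions were edgeR 4.0.16, DESeq2 1.42.0 and R 4.3.3.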

Additional observations from a re-analysis of the deposited data

Results flagged for a closer look

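The Yap1 pools lay on opposite sides in 2 flow comparisons, of which the second did not pass the test. Under IgG at 48 hr every low-flow pool lay below every high-flow pool, at 10.5 and 9.87 against 19.2 and 21.2 FPKM (log2 fold change -0.99, adjusted p = 0.0452). In Rbfox2 EC-KO mice at 7 d every low-flow pool lay above, at 17.3, 20.9 and 18.6 against 14.8 and 14.3 FPKM (log2 fold change 0.39, adjusted p = 0.25). The difference between these comparisons was not tested, and they differ in time, genotype, age and sequencing run.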

How the results depend on the processing

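No member changed direction where it was called, under any alternative run. Of 170 single values under another tool, scaling, filter or fit, 137 kept their side of the threshold, 25 passed anew and 8 no longer passed, and with libraries left out these numbers were 87, 7 and 52 of 146. Counts of members that passed, with the value reported above first, moved as follows. Anti-GPIba against IgG had 0, but 3 with DESeq2, 1 with library totals, 3 without the filter, 5 with the 2 groups fitted alone and 2 with a replicate block. Low against high flow at 48 hr without treatment had 6, of which Wwtr1 was lost with library totals. Low flow against sham had 5, but 4 with DESeq2, and Lats2 was lost there without the filter too. Low against high flow at 7 d had 0 in controls, but 3 with DESeq2, 1 with all groups fitted together and 6 with the replicate block (which leaves low-flow library 1 out of the contrast). In EC-KO it had 2, but 3 with DESeq2, 1 with all groups together and 1 with the block. The block is a number shared by the columns, not a known pairing, in these comparisons, and under IgG (8 members) and PBS liposomes (5) it moved no count. Without low-flow libraries a and b, chosen after seeing the data, 3 members passed against high flow and 0 against sham. No paired analysis was possible in the untreated groups because their columns carry letters and not numbers.

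With any single library left out the counts were 5 to 6 for low against high flow (6 reported), 3 to 5 against sham (5), 1 to 5 under IgG (8), 1 to 4 under PBS liposomes (5), 0 to 6 in 7 d controls (0) and 1 to 3 in EC-KO (2). They stayed at 0 in high flow against sham, the depletions, both genotype comparisons and the interaction, and for EC-KO against control at low flow also without libraries 1 of the earlier run, an alternative chosen after seeing the data. A group left with 1 library is assumed to vary like the others.

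The counts over all genes moved as well. With a library left out they were 2141 to 4231 under IgG (5422 reported), 1482 to 3839 under PBS liposomes (4692) and 204 to 1034 in 7 d EC-KO (858). They were 0 for high flow against sham, but 91 with DESeq2, 63 without the filter and 78 without sham library b. Anti-GPIba called 2216, but 3690 with DESeq2, 4449 with the 2 groups alone and 1 to 89 with a library left out. Clodronate called 16, but 462 with DESeq2, 92 without the filter, 64 with the block, 6 with library totals, 0 with the 2 groups alone, 937 without clodronate library 2, 29 without PBS library 1 and 0 without either other library. Anti-Gr1 called 0, but 225 with the 2 groups alone. In 7 d controls 3 were called, but 1280 with DESeq2, 320 with all groups together, 3843 with the block and 3341 without low-flow library 1, and in EC-KO 858, but 2078 with DESeq2 and 146 with all groups together. EC-KO against control at high flow called 1, but 108 with DESeq2, 13 without the filter, 95 with the block and 1 to 258 with a library left out, the most without EC-KO library 5. At low flow that comparison called 0, but 9 with DESeq2 and 2 without control library 1. Genes at an unadjusted p under 0.05 there rose from 404 to 2917 without that library. The interaction called 0, but 11 with DESeq2 and 7 without control low-flow library 1, with unadjusted counts of 538 and 2350 with and without it. With library totals, low against high flow had 1044 genes higher and 3084 lower, against 2652 and 2543 with TMM, and low flow against sham 642 and 2716, against 2304 and 2195. The causes were not tested. The other sequencing run of the lettered pools, and the sum of both runs, were planned and not run because those columns could not be mapped to libraries. Tead4 in the untreated groups, at 3 to 8 counts a library, and Ankrd1 in high-flow pools are limited by depth.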
